A study of Rattus norvegicus with 16 samples.

Results

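Cultured rat hippocampal neurons kept for 12 h in 5 µM hydroxyurea were compared with untreated neurons across every probe of a whole-genome expression array. The comparison took the 3 samples titled as hydroxyurea 12 hours and the 3 titled as control, chosen by those titles alone, which are 6 of the 15 samples and 7 of the 16 arrays of the series. The other 9 samples, exposed to the same dose for 2, 6 or 24 h, entered the shared estimate of spread and 1 further comparison. All samples were primary cultures from embryonic day 18 Sprague-Dawley rats of no stated genotype, grown in Neurobasal medium with B27, washed, and given medium with B27 lacking antioxidants before the drug was added. That medium change is described for all cultures alike, but the time that untreated cultures were left in it was not stated. Culture age appears in the labels both as 6 to 9 and as 6 to 8 days, and the extraction protocol names hippocampal tissue in place of cultures. Nothing in the labels says that replicates were separate cultures or litters, so the p-values speak only to how far these samples spread, and that spread may be technical.

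Hydroxyurea blocks ribonucleotide reductase, the enzyme that makes deoxynucleotides from ribonucleotides, by destroying the radical in its small subunit. In dividing cells the shortage stalls replication forks and switches on checkpoint kinases and p53, and in blood it is used to raise fetal haemoglobin. Neurons have left the cell cycle, while the glia and progenitors that share their cultures can still divide. A further response described here is that of HIF, the hypoxia-inducible factor, which prolyl hydroxylases mark for destruction when oxygen and iron are available and which otherwise binds hypoxia response elements near genes of glycolysis, vessel growth and survival.

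No gene or unnamed probe differed between 12 h and untreated cultures after adjustment. Of 18110 features tested (11083 named genes and 7027 unnamed probes), 0% passed an adjusted p of 0.05, and the smallest adjusted p in limma, with Benjamini-Hochberg adjustment, was 0.997. The unadjusted p was under 0.05 for 419 features (2.31% of those tested), 242 of them with a higher mean at 12 h (1.34%) and 177 with a lower one (0.977%). That split turned with the scaling: 207 of 491 were higher with quantile normalization, 243 of 550 with the array median, 145 of 447 with a standard score per array, 145 of 460 with the deposited scores and 829 of 1023 with another background correction, normexp, which put the median of all features at 0.102 log2. The 3 values at 12 h lay outside the 3 untreated values for 917 features (5.06%), 547 above them (3.02%) and 370 below (2.04%). The mean at 12 h was the higher one for 55.5% of features and the lower one for 44.5%, and the median difference was 0.022 log2. The 95% interval of a difference reached 0.35 log2 to either side for a feature of median precision, which is 1.27-fold; this is the unadjusted interval, and even differences of 0.73 log2 and more were not called after adjustment. None of the genes named below therefore passed the test, and their values are given as measurements. A level is the log2 signal of a probe less the 75th percentile of its array, and a difference is the mean level at 12 h less the untreated mean.

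The third sample of the 12 h group stood apart from the other 14. The median coefficient of variation between replicate spots on its array was 22.4%, against 3.6 to 7.38% on 14 arrays and 11.9% on the first array of untreated replicate 1. Its level differed by more than 1 log2 from the mean of the other 12 h samples for 1244 features, against 544 for replicate 1 and 313 for replicate 2. Of the 242 features with a higher mean and an unadjusted p under 0.05 it gave the highest 12 h value for 166, and of the 177 lower ones the lowest value for 153. Its median deviation from the untreated mean was 0.13 log2 over the 4528 brightest features and -0.06 log2 over the 4528 dimmest, where replicates 1 and 2 had medians of 0.02 and -0.01 log2 and of 0.14 and 0.01 log2. Without it 0 features passed (smallest adjusted p 1 in limma), the unadjusted p was under 0.05 for 226 features (1.25%), 176 above untreated (0.972%) and 50 below it (0.276%), and 54% of all features had the higher mean at 12 h against 46% with the lower. Only 96 features had an unadjusted p under 0.05 in both fits with the same sign, so values without this sample are given beside those with it for most genes below.

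The arrays measured transcripts of neurons and of glia. The share of the 30367 probes that read well above background was 64.6 to 70.4% per array, with 0 saturated spots. Of 20 neuron markers 18 were tested, among them the microtubule proteins Map2 and Dcx and the growth cone protein Stmn2, and no matched probe held Rbfox3, the gene of the nuclear antigen NeuN. Transcripts of astrocytes (19 of 20 markers tested), radial glia (13 of 14) and the oligodendrocyte lineage (13 of 16) were also measured, whereas only 10 of 18 microglial, 6 of 13 endothelial and 3 of 11 blood cell markers passed the filter on dim probes. In such a bulk sample fewer cells of a type cannot be told apart from less RNA per cell. Untreated replicate 1 had been hybridised on both slides, and its 2 arrays, which were averaged, differed by more than 1 log2 for 701 features, of which 609 were lower on the first array.

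The genes with the smallest unadjusted p on the higher side were a pair of lipid enzymes and a hypoxia target. Lpin1, a phosphatidate phosphatase of triglyceride and phospholipid synthesis, had levels of -5.75, -5.65 and -5.86 in the untreated samples and -5.47, -4.70 and -4.90 at 12 h. All 3 treated samples lay above all untreated ones, replicate 1 by the least. The difference was 0.73 log2 (SE 0.19, 95% interval 0.32 to 1.14, limma unadjusted p 0.00189, adjusted p 0.997), and 0.67 log2 without the third sample. Over 24 alternatives it ranged from 0.25 log2 within slide 1, where replicate 1 is the one treated sample, to 0.99 log2 within slide 2. At 2, 6 and 24 h the same gene differed from untreated by -0.18, 0.10 and 0.05 log2. Pi4k2b, a kinase that makes phosphatidylinositol 4-phosphate on endosomes and the Golgi, had levels of -5.97, -5.42 and -5.48 untreated and -5.16, -4.53 and -4.94 at 12 h. Its groups did not overlap either, and the difference was 0.75 log2 (SE 0.20, limma unadjusted p 0.00208), or 0.78 log2 without the third sample. With untreated replicate 1 taken from its repeat array only it was 0.51 log2 (limma unadjusted p 0.0121). The Pi4k2b probe read -6.70 on the first and -5.25 on the repeat array of that sample, and was well above background on 3 of the 4 untreated arrays. Both genes were dim, and the 28 tested members of the list of lipins, glycerolipid and phosphoinositide enzymes had a median difference of 0.03 log2, with 17 higher and 11 lower.

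Ankrd37, an ankyrin repeat protein whose gene is a direct target of HIF, was the member of the hypoxia list with the smallest p. Its levels were -2.88, -3.05 and -3.47 in untreated samples and -2.27, -2.35 and -2.59 at 12 h. Every treated sample was above every untreated one, and untreated replicate 3 was the lowest of the 6. The difference was 0.73 log2 (SE 0.20, 95% interval 0.31 to 1.15, limma unadjusted p 0.00235, adjusted p 0.997), and 0.82 log2 without the third 12 h sample. Against the same untreated samples, which the comparisons share, Ankrd37 differed by 0.65, 0.69 and 0.73 log2 at 2, 6 and 24 h, and its mean at 12 h differed from the mean of the other exposures by 0.04 log2 (limma unadjusted p 0.794). Under 25 alternatives with other samples, arrays or normalizations, of which 1 was added after seeing the data, its difference ranged from 0.56 to 0.86 log2.

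Vegfa, the vascular endothelial growth factor and the best known HIF target, had levels of 1.81, 1.70 and 1.78 untreated and 2.05, 2.00 and 2.46 at 12 h. The groups did not overlap, and the third 12 h sample was the highest. The difference was 0.41 log2 (SE 0.15, 95% interval 0.08 to 0.74, limma unadjusted p 0.0186), or 0.26 log2 without that sample (limma unadjusted p 0.0953). The other 3 Vegfa probes gave differences in the same direction, of 0.65 log2 (SE 0.28), 0.44 log2 (SE 0.24) and 0.66 log2 (SE 0.20). With the repeat array of untreated replicate 1 alone they gave 0.43, 0.45 and 0.50 log2, and without the third 12 h sample 0.51, 0.26 and 0.62 log2. In the first of these probes the levels were -1.05, -0.19 and -0.19 untreated and 0.24, -0.18 and 0.46 at 12 h, so the second 12 h sample lay just above the untreated maximum. In the second they were -2.16, -2.04 and -1.91 untreated, with -1.55 and -1.23 in 12 h replicates 1 and 3 and a value inside the untreated range in replicate 2, so there the groups overlapped. In the dimmest they were -6.36, -5.81 and -5.89 against -5.64, -5.16 and -5.28. At 2, 6 and 24 h the main Vegfa probe differed from untreated by 0.04, 0.30 and 0.19 log2.

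**Figure D1:**
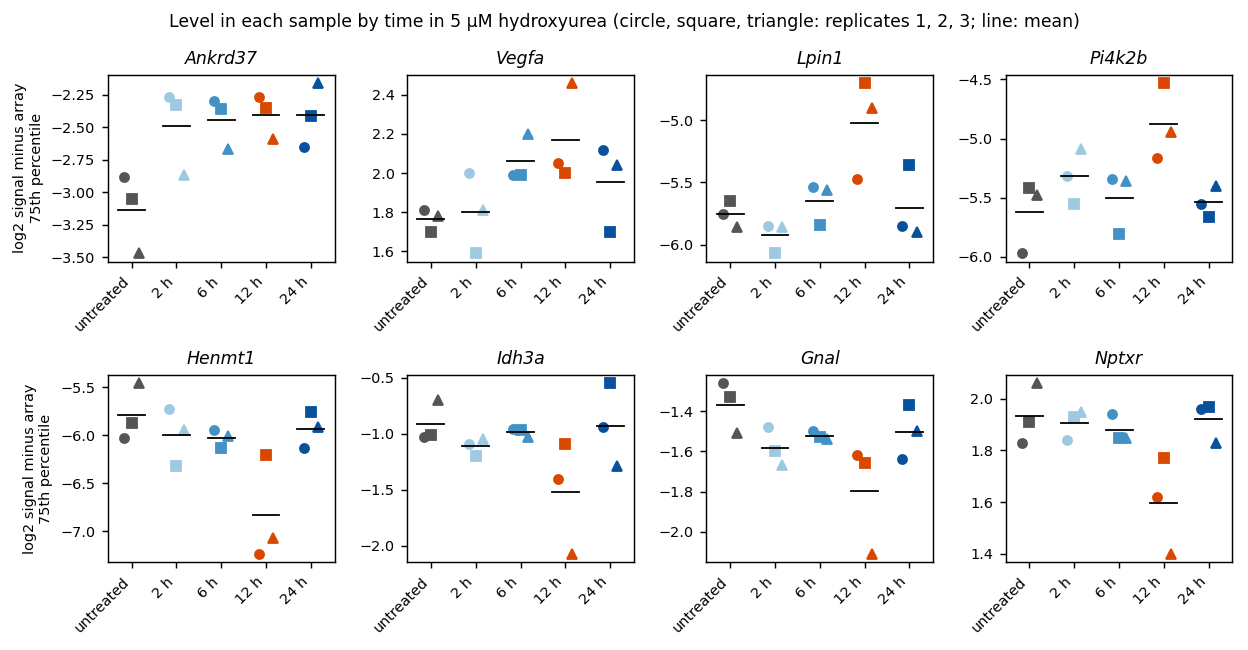
Level of 8 genes in each of the 15 samples, as log2 signal minus the 75th percentile of the array, by hours in hydroxyurea; symbols are replicates 1 to 3 and lines are means. Ankrd37 lay above the untreated samples at every exposure time, whereas Lpin1, Pi4k2b and Henmt1 departed from the untreated mean most at 12 h, and for Idh3a, Gnal and Nptxr the third 12 h sample was the lowest of all.

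The window upstream of Ankrd37 is shown because its gene had the smallest p of the hypoxia list and because HIF binds the core ACGTG (on the other strand CACGT); that of Vegfa is shown beside it. Both are the 250 bases before the annotated start in RefSeq, build GRCr8, on the plus strand, with matches to these letters in capitals: chr16:53001257-53001506 for Ankrd37 and chr9:22452604-22452853 for Vegfa.
Ankrd37: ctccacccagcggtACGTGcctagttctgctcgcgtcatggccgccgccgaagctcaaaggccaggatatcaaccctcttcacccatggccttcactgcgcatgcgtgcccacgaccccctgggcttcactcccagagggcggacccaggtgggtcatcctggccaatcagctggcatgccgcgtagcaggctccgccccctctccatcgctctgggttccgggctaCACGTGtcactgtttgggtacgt
Vegfa: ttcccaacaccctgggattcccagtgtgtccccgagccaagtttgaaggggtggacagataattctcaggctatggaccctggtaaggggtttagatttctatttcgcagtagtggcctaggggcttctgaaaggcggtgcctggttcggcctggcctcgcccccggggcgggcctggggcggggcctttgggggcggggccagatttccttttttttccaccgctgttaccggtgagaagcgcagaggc
The Ankrd37 window held 3 matches, at 236, 23 and 22 bases before the start, and the last 2 are both strands of the same palindrome. The Vegfa window held 0, as did the window of the second Vegfa entry in the table. Sites outside the 250 bases or of another form would not be seen. A match on either strand was held by 16.6% of all 33469 windows; over the 9095 tested genes with a window the share was 22.1%, and of the 25 tested genes of the hypoxia list with a window 12 did (48%). The list was drawn up from known HIF targets, so this share describes the list, and a match is not a measured binding site.

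Over the hypoxia list as a whole, values were slightly above untreated in all 3 treated samples. Of 36 genes 29 were tested: 19 had a higher mean at 12 h and 10 a lower one (55.5% of all features were higher), 0 passed, and 2, Ankrd37 and Vegfa, had an unadjusted p under 0.05, where 2.31% of all features did. The median difference was 0.09 log2, against 0.022 over all features, and without the third sample it was again 0.09 log2, with 23 members higher. Per sample, the median over the list relative to the untreated mean was 0.14, 0.07 and 0.09 log2 at 12 h, against 0.00, 0.00 and -0.03 in the untreated samples. At 2, 6 and 24 h the list's median difference was 0.02, 0.08 and 0.10 log2. Some members of the oxygen-sensing pathway are named here for their role after their values were seen. Hif1a itself differed by -0.13 log2 (SE 0.20) and the prolyl hydroxylase Egln3 by -0.01 log2 (SE 0.10, and 0.23 log2 with normexp). Vhl, which recruits the ligase that removes HIF, differed by 0.17 log2 (SE 0.15). Without the third sample the values were, in this order, 0.09, -0.03 and 0.02 log2.

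The remaining hypoxia targets were spread around small values. Ankzf1, which acts on stalled ribosomes, had a difference of 0.68 log2 (SE 0.33), and this came from 1 sample: its levels were -2.94, -3.13 and -2.85 untreated and -1.24, -2.90 and -2.75 at 12 h. Pfkfb3, chosen after its values were seen, which makes the activator of glycolytic phosphofructokinase, had levels of -4.87, -4.62 and -4.77 untreated and -4.51, -4.09 and -4.54 at 12 h, a difference of 0.37 log2 (SE 0.23) with no overlap between groups, and 0.45 log2 without the third sample. The lactate exporter Slc16a3, from the glycolysis list, likewise had non-overlapping levels of -5.42, -5.13 and -5.38 against -4.79, -4.98 and -4.83, a difference of 0.44 log2 (SE 0.17, limma unadjusted p 0.0215), or 0.42 log2 without that sample. Further known targets, likewise named after their values were seen, were the transcriptional repressor Mxi1 (0.21 log2, SE 0.12), the mitophagy receptor Bnip3 (0.25 log2, SE 0.17), the glucose transporter Slc2a1 (0.09 log2, SE 0.15) and Ndrg1, on the other side at -0.17 log2 (SE 0.16). Without the third sample these were at 0.19, 0.10, 0.22 and -0.30 log2.

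**Figure D2:**
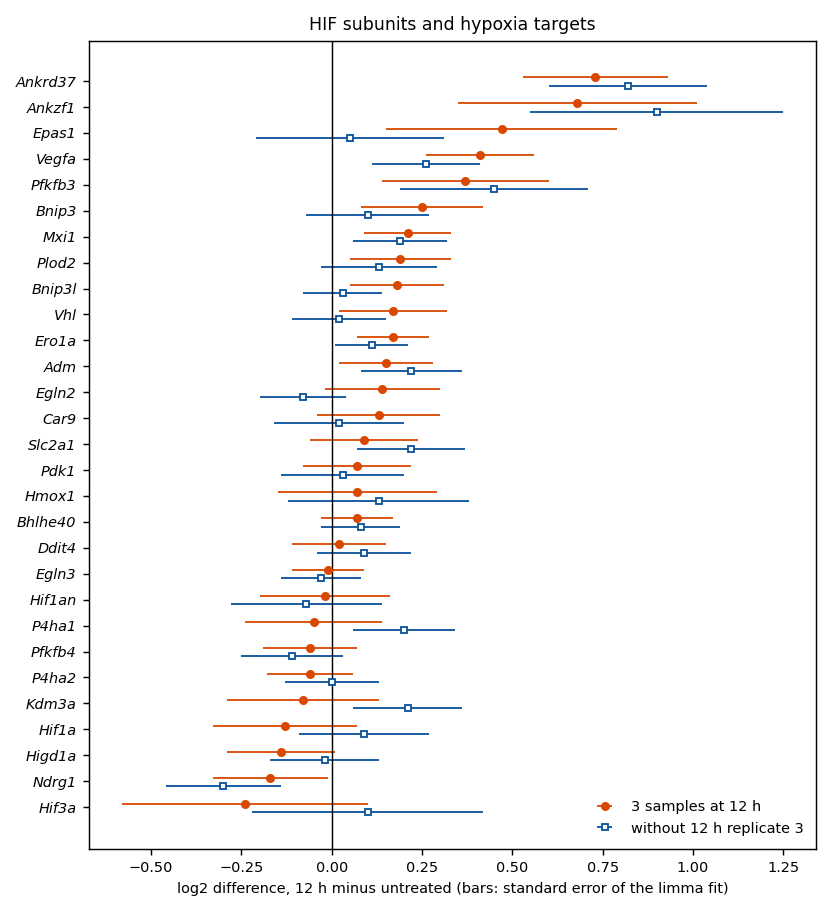
Fitted difference, 12 h minus untreated, in log2 for the 29 tested genes of the hypoxia list; filled circles use the 3 samples at 12 h, open squares leave out the third, and bars are standard errors of the limma fit. Ankrd37 is at 0.73 with the third sample and 0.82 without it, whereas Epas1 moves from 0.47 to 0.05.

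The further genes chosen on the higher side, whose groups did not overlap, were mostly dim. In log2 differences with all samples and then without the third, they were the channel protein Calhm2 (0.40 and 0.43), the melanoma antigen family member Magea13 (0.58 and 0.65), the ciliogenesis gene Cplane2 (0.67 and 0.70), the keratin-associated Krtap10-2 (0.59 and 0.51), the olfactory receptor Olr1400 (0.40 and 0.47) and the termination factor Ttf2 (0.66 and 0.63). Mmd2 (0.38 and 0.36), the Mediator subunit Med21 (0.56 and 0.41) and the receptor tyrosine kinase Erbb2 (0.39 and 0.24) were brighter. The olfactory receptor Or11m3 (0.51 and 0.52) was well above background on 2 of the 3 arrays at 12 h. Calhm2 had levels of -5.23, -5.21 and -5.08 untreated and -4.69, -4.80 and -4.82 at 12 h (SE 0.11, limma unadjusted p 0.00346). Med21 had a level of -0.50 on the first and 1.28 on the repeat array of untreated replicate 1. With the repeat array alone its difference was 0.27 log2 (limma unadjusted p 0.146) and its groups overlapped. Without the third 12 h sample as well the difference was 0.11 log2. A second probe of Erbb2 that was well above background gave 0.07 log2 (SE 0.14), and a second Krtap10-2 probe, well above background on 15 arrays, gave 0.04 log2 (SE 0.28).

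On the lower side the genes were brighter, and the third 12 h sample was often the lowest. Gnal, the G protein alpha subunit that couples dopamine and odorant receptors to adenylyl cyclase, had levels of -1.26, -1.33 and -1.51 untreated and -1.62, -1.66 and -2.11 at 12 h. The groups did not overlap, and the difference was -0.43 log2 (SE 0.13, limma unadjusted p 0.00593), -0.28 log2 without the third sample and -0.33 log2 (SE 0.24) on a second probe, which gave -0.07 log2 without that sample. Its main probe read -0.96 on the first and -1.57 on the repeat array of untreated replicate 1. With the repeat array alone the difference was -0.33 log2, or -0.17 log2 without the third 12 h sample as well. Nptxr, a receptor that gathers neuronal pentraxins and AMPA receptors at synapses, had levels of 1.83, 1.91 and 2.06 untreated and 1.62, 1.77 and 1.40 at 12 h. Its difference was -0.33 log2 (SE 0.11, limma unadjusted p 0.00908), -0.24 log2 without the third sample and -0.19 log2 (SE 0.13) on a second probe. Idh3a, the catalytic subunit of the NAD-dependent isocitrate dehydrogenase of the citric acid cycle, had levels of -1.03, -1.01 and -0.70 untreated and -1.40, -1.09 and -2.07 at 12 h. Its difference of -0.61 log2 (SE 0.22, limma unadjusted p 0.0158) was -0.33 log2 without the third sample.

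Other genes chosen on the lower side were, with all samples and then without the third, the zinc finger gene Zfp786 (-0.54 and -0.33), Nell1 (-0.37 and -0.30), the natriuretic peptide gene Nppa (-0.30 and -0.24), the clathrin-associated Clvs1 (-0.56 and -0.26), Samd12 (-0.30 and -0.22), Ubxn11 (-0.58 and -0.28) and Zbed5 (-0.30 and -0.24). Clvs1 was lower on its second probe too (-0.44 log2, SE 0.16). With the repeat array of untreated replicate 1 alone, Nell1, Samd12 and Ubxn11 were at -0.33, -0.23 and -0.52 log2, and their groups overlapped. Zfp786, Nppa, Clvs1 and Zbed5 were then at -0.42, -0.25, -0.56 and -0.30 log2, still without overlap. Gon7, a subunit of a complex that modifies transfer RNA, was at -0.38 log2 (SE 0.12), and -0.27 log2 without the third sample, on 1 probe, while its other probes gave -0.07 and -0.06 log2. With normexp Nppa was at 0.18 log2.

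The named gene with the smallest unadjusted p was near the detection limit. Henmt1, the methyltransferase that protects the ends of piRNAs, had levels of -6.03, -5.87 and -5.46 untreated and -7.23, -6.20 and -7.07 at 12 h. The groups did not overlap, and the difference was -1.05 log2 (SE 0.24, 95% interval -1.57 to -0.53, limma unadjusted p 0.000727, adjusted p 0.997), or -0.93 log2 without the third sample. The probe was well above background on 1 of the 3 arrays at 12 h, and under another background correction (normexp) the difference was 0.02 log2. Cd55, which shields cells from complement, was not well above background on any 12 h array. Its bound there was 1.50-fold lower, with measured levels of -6.25, -5.78 and -6.06 untreated and -6.71, -6.88 and -6.44 at 12 h (-0.65 log2, SE 0.18, limma unadjusted p 0.00258). Paqr9 and the olfactory receptor Or4k48 were not well above background on any 12 h array either. Their bounds, 1.34-fold and 1.43-fold lower, equal the measured differences and so add nothing to them. Such a bound compares the mean of the bright group with the higher of the probe's own signal and the lowest signal well above background on each dim array. With normexp these 3 genes were higher at 12 h, at 0.14, 0.22 and 0.16 log2, so the bounds hold only for the main background correction.

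A separate choice was made of genes by their p without the third sample. Il11, a cytokine of the interleukin 6 family, had levels of -4.68, -4.32 and -4.35 untreated and -2.51, -3.95 and -5.30 at 12 h. The 3 treated samples thus spanned the untreated range on both sides, and the difference was 0.53 log2 (SE 0.47) with all samples and 1.22 log2 (limma unadjusted p 0.00236) without the third. Upk1b, a uroplakin, went from 0.22 to 0.62 log2 in the same way. On the lower side the hyaluronan-binding Tnfaip6 was at -0.30 log2 with and -0.44 log2 without the third sample, the semaphorin Sema4f at -0.15 and -0.29 log2, and the small MAF protein Mafk at -0.03 and -0.32 log2. With the repeat array of untreated replicate 1 alone Tnfaip6 was at -0.21 log2, or -0.34 log2 without the third 12 h sample as well. The glutathione-cleaving Ggt1 was further from 0 with that sample, at -0.70 log2 (limma unadjusted p 0.00369), than without it, at -0.42 log2 (limma unadjusted p 0.0125). With normexp and all samples Tnfaip6, Ggt1 and Mafk were on the other side, at 0.13, 0.12 and 0.17 log2.

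Replicate 1 at 12 h had features of its own. In a fit of the slide 1 arrays alone, which hold this 1 sample of the 12 h group, 4 features passed an adjusted p of 0.05, all higher (smallest adjusted p 0.0209 in limma). They were, named after their values were seen, Tvp23a, Adrb1 (the beta-1 adrenergic receptor) and a pair of unnamed probes. Adrb1 had a level of -1.37 in 12 h replicate 1, against -5.41 and -4.84 in the other 12 h samples and -5.53 to -4.92 on the untreated arrays. Tvp23a had a level of -1.41, against -3.84 and -3.71 at 12 h and -4.15 to -3.59 on the untreated arrays. With 1 treated sample on the slide, that test compares this sample with the slide's other arrays and assumes that it varies like the other groups. Within slide 2, which holds the other 12 h samples, 0 features passed, and 192 had an unadjusted p under 0.05.

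The target of the drug showed little difference. Rrm1, the large subunit of ribonucleotide reductase, had levels of -4.26, -4.16 and -4.11 untreated and -3.98, -4.16 and -3.88 at 12 h, a difference of 0.17 log2 (SE 0.13, 95% interval -0.11 to 0.45). Rrm2, the small subunit of dividing cells, had levels of 3.19, 3.06 and 2.78 against 3.07, 3.08 and 3.38, a difference of 0.16 log2 (SE 0.17, interval -0.21 to 0.54), with overlapping groups in both genes; without the third sample they were at 0.11 and 0.06 log2. A second, dimmer Rrm2 probe gave 0.32 log2 (SE 0.13, limma unadjusted p 0.0258) from levels of -3.73, -3.32 and -3.47 against -3.25, -3.35 and -2.94. Rrm2b, the p53-inducible small subunit, was well above background on 0 of 16 arrays and was not tested. Of the 16 tested genes of deoxynucleotide supply 12 were higher and 4 lower, with a median of 0.05 log2, or 0.02 log2 without the third sample. Dut, which removes dUTP, was at 0.23 log2 (SE 0.12) and thymidylate synthase Tyms, named after its values were seen, at -0.24 log2 (SE 0.21), or 0.08 log2 without the third sample.

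Of the 20 p53 targets and the 19 checkpoint and repair genes tested, 0 had an unadjusted p under 0.05, where 2.31% of all features did, so these counts lie near the background. Cdkn1a, which encodes the cell cycle inhibitor p21 and is the classical p53 target, had levels of 2.71, 2.84 and 3.11 untreated and 3.28, 2.95 and 3.20 at 12 h. The groups overlapped, the difference was 0.26 log2 (SE 0.19, interval -0.16 to 0.67) and 0.23 log2 without the third sample, and a second probe gave -0.09 log2 (SE 0.36). Mdm2, the ligase that p53 induces against itself, was at 0.12 log2 (SE 0.13, interval -0.16 to 0.41), at -0.04 log2 without the third sample and at -0.33 log2 (SE 0.20) on a second probe. Of 20 tested p53 targets 14 were higher and 6 lower (median 0.08 log2), Tp53inp1 at 0.26 log2 (SE 0.17) and Gadd45a at -0.17 log2 (SE 0.11) having the smallest p. Among 19 checkpoint and repair genes the median was 0.04 log2, and the low values of Mre11 and Rad17, of the break sensor and the checkpoint clamp loader, rested on the third sample: Mre11 read -5.21, -5.13 and -6.94 at 12 h and -5.14 to -4.99 untreated, and its difference was 0.03 log2 with normexp. Among the 42 cell cycle genes 19 were higher and 23 lower, with a median of -0.02 log2. The 14 tested members of the BCL2 family had a median of -0.03 log2.

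Among genes of protein synthesis and metabolism, several list medians moved with the third sample. Of 76 tested ribosomal protein genes 67 were higher and 9 lower, with a median of 0.13 log2 against 0.022 over all features, but the medians per sample were 0.07, 0.05 and 0.23 log2 at 12 h and 0.01, 0.06 and -0.06 untreated. Without the third sample the list's median was 0.07 log2 with 66 higher, and it was 0.01 log2 with quantile normalization. All 3 values at 12 h lay above the untreated ones for 15 of the 76 and below them for 1. Over all features these shares were 3.02% and 2.04%. Rps19, the only ribosomal gene with an unadjusted p under 0.05, was at 0.38 log2 (SE 0.17) on its brightest probe, 0.15 log2 without the third sample, and at -0.03 and -0.01 log2 on the others. Nuclear genes of the respiratory chain went from a median of 0.05 to -0.03 log2 without that sample, integrated stress response and amino acid genes from 0.05 to -0.11 log2, genes of cholesterol and fatty acid synthesis from 0.05 to -0.08 log2, and lysosome and autophagy genes from 0.08 to 0.00 log2. Over the 43 lists the third sample had the highest of the 6 sample medians in 23 and the lowest in 6.

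**Figure D3:**
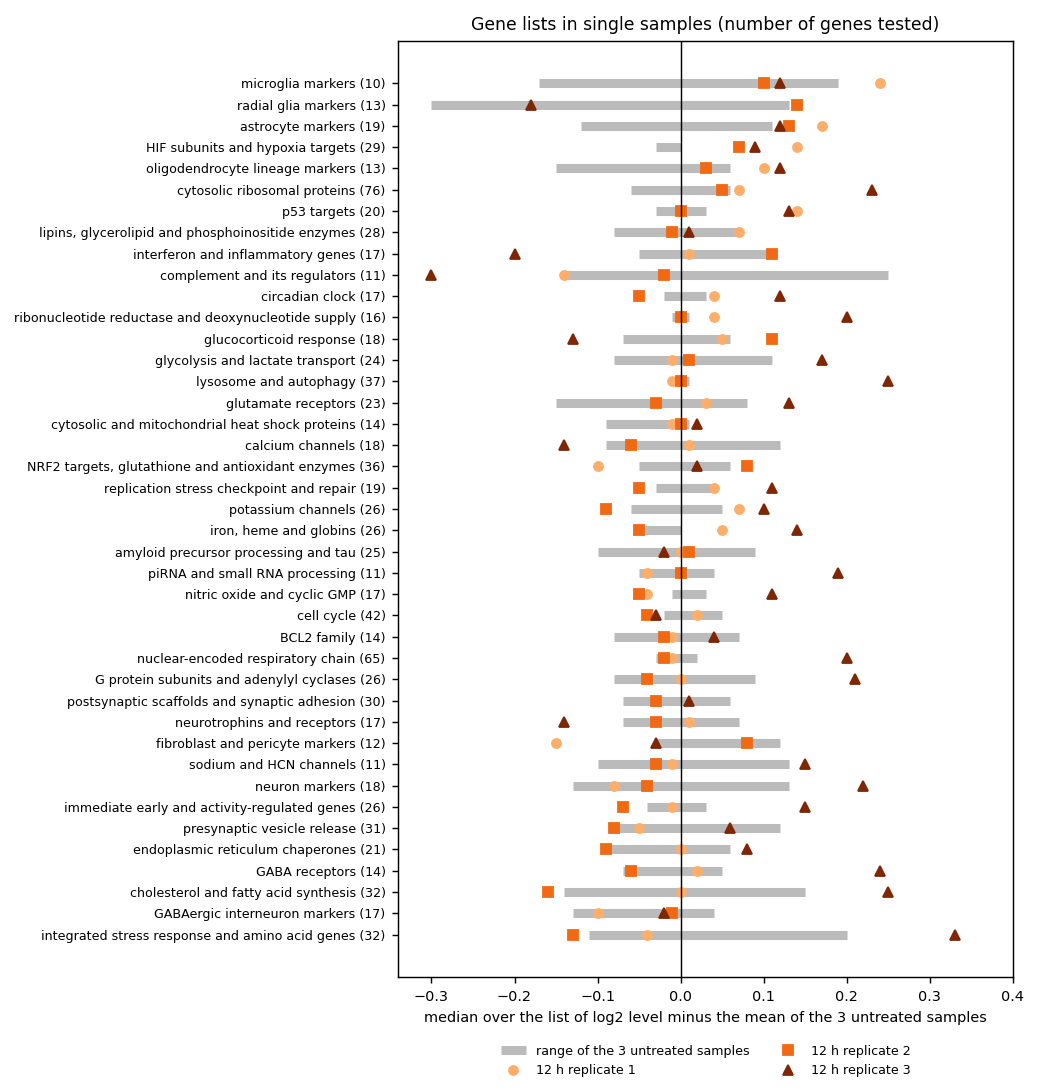
Median over each gene list of the log2 level minus the untreated mean, for each 12 h sample (symbols) and as the range of the 3 untreated samples (grey bars), for the 41 lists with at least 10 genes tested. The third 12 h sample, the darkest triangle, often lies far from the other 12 h samples, as in the integrated stress response list at 0.33 against -0.04 and -0.13; in the hypoxia and astrocyte lists all 3 lie above the grey bar.

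Several high values in metabolic genes came from the first array of untreated replicate 1. Pgk1, a glycolytic kinase, read 1.63 on that array and 4.99 on the repeat, with 5.08 and 5.08 in the other untreated samples and 5.11, 5.15 and 5.08 at 12 h. Its difference of 0.62 log2 (SE 0.34) was 0.06 log2 with the repeat array alone. Phgdh, the first enzyme of serine synthesis, read 4.03 and 6.12, and its difference of 0.46 log2 became 0.11 log2. The lysosomal transcription factor Tfe3 read -5.13 and 1.22, and its difference of 1.07 log2 became 0.01 log2. The fatty acid elongase Elovl6 read -2.20 and 1.64, and its other probe gave -0.14 log2 (SE 0.27).

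**Figure D4:**
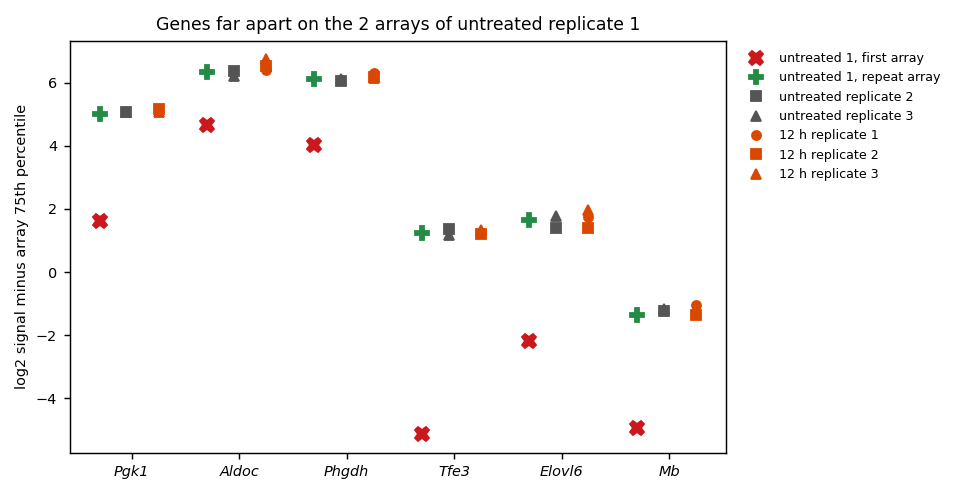
Levels of 6 genes (log2 signal minus the 75th percentile of the array) on the 2 arrays of untreated replicate 1, in untreated replicates 2 and 3, and in the 12 h samples. The repeat array reads with the other samples (Pgk1 4.99, Tfe3 1.22), and the first array reads low (1.63 and -5.13).

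Genes of stress chaperones, antioxidants and inflammation had medians near 0. Among 36 genes of the NRF2, glutathione and antioxidant list 19 were higher and 17 lower (median 0.02 log2), and the 14 heat shock proteins were split 7 and 7 (median 0.00 log2). Endoplasmic reticulum chaperones had a median of -0.04 log2, and Hsp90b1, the only one with an unadjusted p under 0.05, read 1.27, 1.42 and 0.28 at 12 h against 1.55, 1.40 and 1.51 untreated, so that its difference of -0.49 log2 (SE 0.22) came from the third sample. In the list of iron, heme and globin genes 16 of 26 were higher (median 0.08 log2, and -0.01 log2 without the third sample), and the alpha globin Hba-a1 was at 0.13 log2 (SE 0.17). Glucocorticoid-responsive genes were split 9 and 9: the kinase Map3k6 was at 0.41 log2 (SE 0.14, limma unadjusted p 0.013), or 0.27 log2 with the repeat array of untreated replicate 1, with levels of -5.65, -5.22 and -5.20 untreated and -5.03, -4.87 and -4.93 at 12 h. Its probe was well above background on 3 of the 4 untreated arrays. The co-chaperone Fkbp5 was at -0.38 log2 (SE 0.15), or -0.15 log2 without the third sample, with 0.38, 0.25 and -0.37 at 12 h against 0.44 to 0.49 untreated. The circadian receptor Rorb had levels of -4.08, -4.17 and -4.10 untreated and -3.95, -3.72 and -3.87 at 12 h, a difference of 0.27 log2 (SE 0.11), or 0.28 log2 without the third sample. The clock gene Per1 was at 0.30 log2 (SE 0.14), or 0.39 log2 without it.

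Synaptic genes and ion channels showed single low values, and their list medians with all samples lay between -0.08 and 0.06 log2. Medians were 0.06 log2 for 23 glutamate receptor genes, -0.01 log2 for 30 postsynaptic scaffolds and adhesion genes, -0.02 log2 for 31 genes of vesicle release and 0.04 log2 for 14 GABA receptor genes. Potassium channels were at 0.02 log2, calcium channels at -0.08 log2 and sodium and HCN channels at 0.04 log2. Without the third sample these medians were, in the same order, 0.00, -0.04, -0.06, -0.07, -0.01, 0.00 and -0.05 log2. The members higher were then 12 of 23, 8 of 30, 9 of 31, 3 of 14, 11 of 26, 9 of 18 and 3 of 11. Of all features 54% were higher in that fit. A shared shift of these lists was not tested. Grin1, the obligatory NMDA receptor subunit, had levels of -3.92, -4.16 and -3.86 untreated and -4.23, -4.30 and -4.70 at 12 h, a difference of -0.43 log2 (SE 0.17, limma unadjusted p 0.0268) with no overlap, -0.29 log2 without the third sample and -0.02 log2 with normexp. A second, dimmer Grin1 probe gave -0.38 log2 (SE 0.28), or 0.00 log2 without that sample. The inward rectifier Kcnj6 was at -0.38 log2 (SE 0.15) with all samples and -0.37 log2 without the third, but at 0.01 log2 with normexp. With the repeat array of untreated replicate 1 alone it was at -0.25 log2. The kinase subunit Camk2b (-0.52 log2, SE 0.23) and the vesicle GTPase Rab3a (-0.51 log2, SE 0.23) were low in the third sample, with -0.18 and -0.20 log2 without it, and a second Camk2b probe gave 0.07 log2. Immediate early and activity-regulated genes had a median of 0.05 log2, or -0.05 log2 without the third sample.

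Of the astrocyte markers 0 passed the test, and their medians per sample differed little between groups. Among the 19 tested 16 had a higher mean at 12 h and 3 a lower one (55.5% of all features were higher). An unadjusted p under 0.05 in limma was reached by 2, Aldoc and Slc1a2, where 2.31% of all features did. The list had a median of 0.12 log2 (0.022 over all features), 0.13 log2 without the third sample and 0.01 log2 within slide 1. The medians per sample were 0.17, 0.13 and 0.12 log2 at 12 h and 0.11, 0.03 and -0.12 log2 untreated, so the lowest treated sample was 0.01 log2 above the highest untreated one. The hypoxia and astrocyte lists were the 2 of 43 in which all 12 h medians lay above the untreated ones, and in 0 lists did all lie below. Of single features 3.02% had all 3 values at 12 h above the untreated ones and 2.04% had them below. Whether the count of lists exceeds such a background was not tested. The summed signal of the 19 markers, in units of the array's 75th percentile, was 282 to 316 untreated and 340 to 361 at 12 h. Without the glycolytic enzyme Aldoc it was 209 to 256 untreated and 252 to 255 at 12 h, so the groups then overlapped. This overlap came from the averaged arrays of untreated replicate 1. With its repeat array alone the sums without Aldoc were 239, 235 and 209 untreated, all below the 12 h values. Aldoc had levels of 5.49, 6.35 and 6.20 untreated and 6.41, 6.53 and 6.73 at 12 h, a difference of 0.54 log2 (SE 0.18) that was 0.26 log2 with the repeat array of untreated replicate 1 and 0.14 log2 (SE 0.16) on a second probe. The glutamate transporter Slc1a2 was at 0.46 log2 (SE 0.18), 0.21 log2 with the repeat array and 0.13 log2 on a second probe. With the repeat array the limma unadjusted p was 0.177 for Slc1a2, whose groups then overlapped, and 0.0229 for Aldoc. The astrocyte filament gene Gfap had levels of -1.63, -1.23 and -0.79 against -1.66, -1.09 and -0.72, a difference of 0.06 log2 (SE 0.29). The part of astrocytes in the values of Ankrd37, Vegfa or the hypoxia list was not tested.

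In the lists of markers of other cells 0 members passed either. For the counts that follow, 55.5% of all features were higher, 44.5% were lower and 2.31% had an unadjusted p under 0.05 in limma. Neuron markers had a median of 0.01 log2, or -0.05 log2 without the third sample. Of 17 GABAergic interneuron markers 13 were lower (median -0.09 log2), with 0 at an unadjusted p under 0.05. Radial glia markers were at 0.06 log2, and Hes5, a Notch target, at 0.52 log2 (SE 0.20), or 0.39 log2 with the repeat array of untreated replicate 1. Oligodendrocyte lineage markers were at 0.06 log2 and Mbp at 0.17 log2 (SE 0.40). Microglial markers were higher in 8 of 10 (median 0.16 log2), of which 1, the myeloid transcription factor Spi1, had an unadjusted p under 0.05. Spi1 had levels of -6.58, -8.52 and -5.96 untreated and -5.49, -4.46 and -5.69 at 12 h, so the groups did not overlap, and untreated replicate 2 was the lowest. The difference was 1.80 log2 (SE 0.83, limma unadjusted p 0.0484), or 2.04 log2 without the third sample, 1.05 log2 without untreated replicate 2 and 0.65 log2 with normexp, and its probe was well above background on 2 of the 4 untreated arrays. Against the same untreated samples Spi1 differed by 2.22, 0.52 and 1.94 log2 at 2, 6 and 24 h. Csf1r was at 0.24 log2 (SE 0.15) and Aif1 at 0.01 log2 (SE 0.17), while 8 of 18 were not tested; the summed signal was 3.36 to 4.11 untreated and 3.72 to 4.69 at 12 h. Endothelial markers were at -0.12 log2 and fibroblast and pericyte markers at -0.09 log2, and Col1a1 was at -0.34 log2 (SE 0.83). Its levels went with the replicate number, at -1.23, -2.48 and -0.38 untreated and -1.62, -2.85 and -0.63 at 12 h, so each 12 h value was below the untreated value of the same number, and with a replicate block the SE was 0.39 (limma unadjusted p 0.399). At 2 h its levels were -1.40, -2.66 and -0.14 and at 6 h -1.51, -2.81 and -0.27, in the same order of replicates. At 24 h they were -0.41, -2.77 and -1.75 by the scanner files, whose replicates 1 and 3 the deposited scores exchange. A second probe gave -0.03 log2 (SE 0.27) at 12 h.

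Set against the other exposures, 12 h was again not separated by the test. Compared with the mean of 2, 6 and 24 h, which shares no untreated sample with it, 0% of features passed (smallest adjusted p 0.854 in limma). An unadjusted p under 0.05 was reached by 921 features (5.09%), 396 higher (2.19%) and 525 lower (2.9%), and by 299 features (1.65%) without the third 12 h sample, 247 higher (1.36%) and 52 lower (0.287%). Lpin1 was 0.74 log2 above the other exposures (limma unadjusted p 0.000333). With all samples and then without the third, the ubiquitin ligase adaptor Klhl11 was 0.60 and 0.48 log2 above them, Dpy19l3 0.59 and 0.37, the hepatocyte growth factor receptor Met 0.54 and 0.51, Vsig8 0.47 and 0.35, Calhm2 0.32 and 0.35 and Rorb 0.31 and 0.32. On the lower side were the zinc finger gene Znhit1 (-0.72 and -0.34), the metalloreductase Steap1 (-0.60 and -0.31), Slc12a9 (-0.54 and -0.31), the mitochondrial Mtfr1l (-0.47 and -0.33), the GTPase Ralb (-0.32 and -0.19) and Nptxr (-0.31 and -0.21). For Znhit1 the 12 h levels were 0.60, 1.23 and -0.25 and the untreated range was 1.16 to 1.40, so 1 treated sample lay within that range and the lowest value was again the third sample's.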

How the data were processed

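Spot intensity values were deposited as written by Agilent Feature Extraction 11.5.1.1, per the file headers, with background already subtracted. The authors also deposited a table with a score per array and probe, in which the columns of 24 h replicates 1 and 3 held the values of the other's scanner file. Levels here are log2 processed signals less the 75th percentile over non-control spots of the same array, averaged over the spots of a probe and over both arrays of untreated replicate 1. A gene took its brightest probe. The share of a probe's spots that had to be well above background, for it to count on an array, was 50%. A feature was kept for testing if at least 1 group had no array where it fell short of this. Of 30367 probes, 18758 matched 15715 symbols by RefSeq accession (GRCr8 table).

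limma 3.58.1 in R 4.3.3 fitted all 15 samples (10 residual degrees of freedom), with two-sided contrasts and Benjamini-Hochberg adjustment over 18110 features, and was tested on simulated data. Precision is limited by the number of arrays. The members and lists were chosen with earlier results of these data known. The rule for named genes took, by unadjusted p, 12 in each direction whose groups did not overlap, 8 in each direction without 12 h replicate 3, 3 in each direction with only a bound, 3 per list, 6 in each direction against the other exposures, the reductase subunits and a fixed set of drug, hypoxia and cell type genes; the text gives those its results turn on and marks the others. The alternatives covered samples, arrays, blocks, array weights, normalization, background, filters, the spread model and other probes of a gene. For normexp the median spot signal replaced the mean, which was not used here. A few genes that the rule chose are not reported here.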

Additional observations from a re-analysis of the deposited data

How the results depend on the processing

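No feature passed in either comparison under 24 of the 25 alternatives for 12 h against untreated and 20 of the 21 for 12 h against the other exposures; within slide 1, with 1 treated sample, 4 and 7 features passed, all higher in that sample. Leaving out each 12 h sample in turn (both comparisons) and each untreated sample in turn (12 h against untreated) gave 0 features; samples at 2, 6 and 24 h were not left out. With a replicate block the counts were 0 and 0, with 534 and 994 features at an unadjusted p under 0.05. That block took the 24 h numbers as labelled on the scanner files. Deviations of same-numbered 12 h and untreated samples correlated at 0.026, 0.17 and 0.172 over all features. The main fit used no pairing, though single genes such as Col1a1 went with the replicate number at 2, 6 and 12 h. Whether same-numbered samples share a culture was not settled. The unadjusted count for 12 h against untreated was 1260, 1641 and 226 without 12 h replicates 1, 2 and 3, and 336, 638 and 502 without untreated replicates 1, 2 and 3. It was 199 with only the 6 samples, 538 with the slide as a block, 282 with array weights (12 h replicate 3 had a weight of 0.17), 814 with no filter on dim probes and 237 without 12 h replicate 3 and with the repeat array of untreated replicate 1, an alternative chosen after seeing the data.

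Among the named genes 59 single values changed sign and 2 passed the threshold, Adrb1 (3.77) and Tvp23a (2.73) within slide 1; the cause was not tested. Of the list medians 49 moved by more than the spread between replicates. Normexp turned Cd55 (0.14), Ggt1 (0.12), Henmt1 (0.02), Kcnj6 (0.01), Mafk (0.17), Mre11 (0.03), Nppa (0.18), Or4k48 (0.16), Paqr9 (0.22), Tnfaip6 (0.13) and Egln3 (0.23). Within slide 1 Col1a1 (0.26), Gfap (-0.22), Mdm2 (-0.05), Rrm2 (-0.07), Tyms (0.16) and Vhl (-0.03) turned, and within slide 2 Elovl6 (-0.03), Il11 (-0.04), Mafk (0.16) and Egln3 (0.06). Gfap was at -0.03 with the slide as a block, and that block without 12 h replicate 3 gave Gfap -0.16, Hba-a1 -0.01, Mdm2 -0.04, Tyms 0.08 and Hif1a 0.09. Array weights gave Gfap -0.06, Hba-a1 -0.03, Tyms 0.01 and Hif1a 0.04. The added alternative gave Elovl6 -0.03, Gfap -0.17, Mdm2 -0.04, Tfe3 -0.02, Tyms 0.09 and Hif1a 0.06. Aif1 was at -0.06 with the deposited scores and with the standard score, -0.02 with quantile normalization and -0.03 with the first array of untreated replicate 1. Leaving out 1 sample turned 12 genes, whose ranges over the 6 such fits were -0.11 to 0.18 for Aif1, -0.89 to 0.24 for Col1a1, -0.04 to 0.06 for Egln3, -0.16 to 0.31 for Gfap, -0.01 to 0.32 for Hba-a1, -0.31 to 0.09 for Hif1a, -0.17 to 1.22 for Il11, -0.32 to 0.12 for Mafk, -0.04 to 0.21 for Mdm2, -0.30 to 0.01 for Ndrg1, -0.02 to 0.23 for Slc2a1 and -0.46 to 0.08 for Tyms.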

Other observations

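The lists not described above, or described there only by single members, also had 0 members that passed the test in limma. The 11 tested genes of complement and its regulators had a median difference of -0.08 log2 (8 lower, 3 higher), which was 0.03 log2 without the third 12 h sample, and 1 of them, Cd55, had an unadjusted p under 0.05. Among 17 interferon and inflammatory genes 10 were lower and 7 higher, with a median of -0.06 log2 and 0.03 log2 without that sample. The 17 neurotrophins and receptors had a median of -0.06 log2. The lowest of them, the fibroblast growth factor receptor Fgfr1 at -0.97 log2 (SE 0.50) and -0.07 log2 without that sample, read -0.08, -0.01 and -2.75 at 12 h and 0.04, -0.06 and 0.11 untreated, and its second probe gave 0.13 log2 (SE 0.11). The 26 G protein subunits and adenylyl cyclases were at 0.07 log2, or -0.03 log2 without the third sample. Genes of amyloid precursor processing and tau were at 0.01 log2 (13 higher, 12 lower), genes of nitric oxide and cyclic GMP at 0.01 log2, circadian clock genes at 0.07 log2, glycolysis and lactate transport genes at 0.04 log2, glucocorticoid-responsive genes at -0.02 log2, genes of piRNA and small RNA processing at 0.03 log2, and the 3 tested blood cell markers at 0.13 log2.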
